A study of Homo sapiens with 4 samples.

Results

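The MYC, MAX and MXD network was followed through 10 genes, selected by symbol from a table of 18840: MYC, MAX, MXD1, MXI1, MXD3, MXD4, MNT, MGA, MLX and MLXIP. Poly(A) RNA had been sequenced from MCF10A, an immortalised, non-tumorigenic human mammary epithelial line, labelled as stably expressing miR-105, MYC, GFP or nothing further from the retroviral vector pBabe. The constructs were pBabe-miR-105, pBabe-MYC, pBabe-GFP and the empty pBabe vector, and all lines grew in the same medium, which held horse serum and insulin together with EGF, hydrocortisone and cholera toxin. Each construct had 1 library, so no construct has a replicate and the differences below are described by folds with counting intervals; whether a line was a clone or a pool of transduced cells is not stated. The libraries held 6859698 reads for miR-105, 9795159 for MYC, 14025115 for GFP and 9138429 for the vector.

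MYC binds DNA only as a pair with MAX, mostly at E-boxes of the sequence CACGTG, and MYC-MAX pairs activate genes of growth and ribosome production. The MXD proteins (MXD1, MXI1, MXD3 and MXD4) and MNT also pair with MAX, occupy the same sites, and recruit the SIN3 corepressor with its histone deacetylases. MGA joins MAX in a Polycomb complex, PRC1.6, and MLX forms a parallel branch with the glucose-sensing activator MLXIP (MondoA). Several MXD genes are known to be expressed as epithelial cells stop dividing and differentiate, whereas MXD3 is known from mouse studies to be expressed in dividing cells.

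The design joins this network to miR-105, a microRNA reported to act on MXI1. The mature arms are shown because their seeds, bases 2 to 8 in capitals, define the sites searched for in the network. Both sequences are from RefSeq (GRCh38.p14), and each is encoded by a pair of loci on the minus strand of the X chromosome, with the 5p arm at chrX:152392265-152392287 and chrX:152394458-152394480.
hsa-miR-105-5p: uCAAAUGCucagacuccuguggu
hsa-miR-105-3p: aCGGAUGUuugagcaugugcua
The DNA letters that pair with the 5p seed, GCATTTG, were looked for in the longest annotated 3′ UTR of each member (GENCODE v29, GRCh38). MXI1 held 2 matches and MAX 1, and the other 8 members held none. The sites are printed with the match in capitals, in the direction of the transcript. They lie at chr10:110285999-110286027 and chr10:110287174-110287202 on the plus strand for MXI1 and at chr14:65075273-65075301 on the minus strand for MAX.
MXI1 first site: tctattttgatgcaGCATTTGataatgat
MXI1 second site: ttatgggctggaaaGCATTTGttataaac
MAX site: ctactccgttcctgGCATTTGctgatttc
The MXI1 matches start at bases 1026 and 2201 of a 3′ UTR of 2378 bases, and the first is followed by A, the base that extends a seed match. The MAX match starts at base 2516 of 2601. A single match is common: 14.8% of 19115 genes had at least 1. So did 21.0% of the 2588 genes with a 3′ UTR of about the length of that of MXI1, and 23.2% of the 2530 genes near MAX in length. Holding 2 or more, as MXI1 does, was rarer: 387 of the genes measured below did, beside 1655 with 1 and 10045 with none. MXD4 held 1 match to the seed of the 3p arm. At least 1 such match was held by 3.16% of the genes near MXD4 in 3′ UTR length and by 1.53% of all. A match is a string of letters in the annotation, and binding was not measured.

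Levels are given as CPM, the reads of a gene scaled to a common library size, with TMM factors, and intervals are exact 95% intervals that cover counting error only. A gene was called higher or lower when it stood at least 1.5-fold from both control libraries, GFP and vector, on log2(CPM + 0.5); 12484 genes had the required mean of at least 1 CPM, among them all 10 members. In the library labelled miR-105, 3 members were called higher (MYC, MXD3 and MGA) and 3 lower (MXI1, MXD4 and MNT). Over all measured genes, 24.0% were called higher and 24.7% lower, 48.7% in either direction, so the number of members called was near the background and the results are which members differed and by how much. The median log2 fold was 0.29 for the members and 0.01 for all measured genes. In the library labelled MYC, 1 member was called higher (MGA) and 0 lower, beside 16.6% and 17.2% of all measured genes (33.8% in either direction). These counts of 10 members were not tested against those shares. The median log2 fold there was 0.12 for the members and 0.04 for all measured genes.

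**Figure D1:**
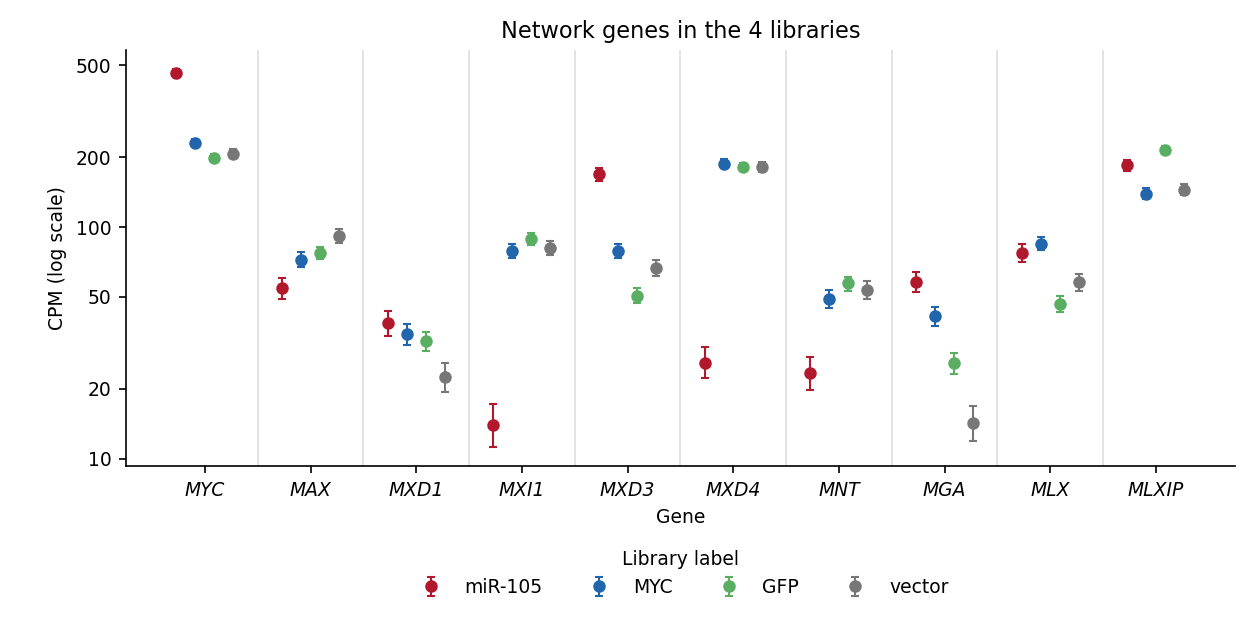
CPM of the 10 network members (log axis) in the libraries labelled miR-105, MYC, GFP and vector, 1 point per library, with exact Poisson 95% intervals. MXI1 and MXD4 stand at 14 and 26 CPM in the library labelled miR-105, where MYC stands at 463 CPM, while the other libraries lie close together for these genes.

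MYC, the activator of the network and the check on the MYC construct, had 463 CPM in the library labelled miR-105, 232 CPM in the library labelled MYC, 198 CPM in GFP and 207 CPM in the vector. The highest MYC mRNA was therefore in the miR-105 library. There it was 2.34-fold (2.22 to 2.46) above GFP, 2.24-fold (2.11 to 2.37) above the vector and 2-fold (1.9 to 2.11) above the library labelled MYC. Under the MYC label it was 1.17-fold (1.11 to 1.24) above GFP and 1.12-fold (1.05 to 1.19) above the vector, both below 1.5-fold. The labels were taken as given, although the library labelled MYC did not hold the most MYC mRNA. Whether reads of the construct itself were counted under this symbol is not given in the sources used here. Bulk levels like these cannot tell fewer cells of a kind from less RNA per cell.

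MLXIP, the activator of the MLX branch, had 185 CPM in the library labelled miR-105, 139 CPM in that labelled MYC, 215 CPM in GFP and 145 CPM in the vector. The controls bracketed the miR-105 library, which was 1.17-fold below GFP and 1.27-fold above the vector. The library labelled MYC was 1.55-fold below GFP but 1.04-fold below the vector, so MLXIP was called in neither construct library.

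MAX and MLX are the partner proteins that the other members need to bind DNA, and in the miR-105 library they differed less from the controls than MXI1, MXD3, MXD4 and MNT. MAX had 54.4 CPM in the library labelled miR-105, 72.4 CPM in that labelled MYC, 77.6 CPM in GFP and 91.7 CPM in the vector. It was lowest in the miR-105 library, 1.43-fold (1.26 to 1.61) below GFP and 1.68-fold (1.48 to 1.91) below the vector, which did not pass 1.5-fold against both. MLX had 77.6 CPM in miR-105, 84.8 CPM in MYC, 46.4 CPM in GFP and 57.8 CPM in the vector. Both construct libraries were above both controls, miR-105 by 1.67-fold over GFP and 1.34-fold over the vector, and MYC by 1.82-fold over GFP and 1.47-fold over the vector. MLX shares 770 of its 2590 exon bases with a gene on the opposite strand that is not analysed here, and without a known strand setting their reads cannot be told apart.

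MXI1 (chr10:110207605-110287365, GRCh38, as for the positions that follow), an MXD-family antagonist that competes with MYC for MAX, was counted by 89 reads in the library labelled miR-105, 835 in that labelled MYC, 1230 in GFP and 751 in the vector. These were 14 CPM in miR-105, 79.2 CPM in MYC, 88.9 CPM in GFP and 81.2 CPM in the vector. The miR-105 library stood alone: it was 6.37-fold (5.13 to 7.98) below GFP and 5.82-fold (4.66 to 7.33) below the vector. The library labelled MYC lay within 1.12-fold of both controls. MXI1 carries the pair of 5p matches printed above. Among the measured genes with an annotated 3′ UTR, the median log2 fold in the miR-105 library was 0.1 for the 387 with 2 or more matches, 0.04 for the 1655 with 1 and 0 for the 10045 with none. The share called lower was 17.3% with 2 or more matches, 20.9% with 1 and 25.3% with none. These groups differ in the length of the 3′ UTR, with medians of 4644 bases for 2 or more matches, 2841 for 1 and 1096 for none. The part of the matches in the MXI1 value was not tested.

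MXD4 (chr4:2247432-2262294), another MXD antagonist, differed in the same direction. It has no 5p match but holds 1 match to the 3p seed, and the part of that match in the MXD4 value was not tested. It had 26 CPM (166 reads) in the library labelled miR-105, against 188 CPM (1985 reads) in MYC, 182 CPM (2513 reads) in GFP and 181 CPM (1677 reads) in the vector. The controls differed by less than their counting error, and the miR-105 library was 6.97-fold (5.96 to 8.21) below GFP and 6.96-fold (5.93 to 8.22) below the vector, the largest fold among the members. The library labelled MYC was 1.04-fold above each control, with intervals that include 1.

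MNT (chr17:2384060-2401118), an antagonist with broad expression that also pairs with MLX, had 23.4 CPM in the library labelled miR-105, 49 CPM in that labelled MYC, 57.1 CPM in GFP and 53.4 CPM in the vector. It was 2.44-fold (2.05 to 2.93) below GFP and 2.29-fold (1.9 to 2.76) below the vector in miR-105, with no overlap of the counting intervals of its levels. The MYC library was 1.16-fold below GFP and 1.09-fold below the vector. MNT shares 1065 of its 4996 exon bases with an antisense RNA, whose reads could be mixed in. Opposite-strand RNAs also overlap MXI1 over 205 of 4050 exon bases, MGA over 510 of 15180 and MAX over 108 of 4102.

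MXD3 (chr5:177305500-177312757) ran opposite to MXI1 and MXD4. It had 169 CPM in the library labelled miR-105, 78.7 CPM in that labelled MYC, 50.6 CPM in GFP and 66.6 CPM in the vector, and was 3.35-fold (3.04 to 3.69) above GFP and 2.54-fold (2.3 to 2.81) above the vector in miR-105. This value is uncertain, because MXD3 shares 731 of its 3292 exon bases with PRELID1 on the opposite strand. PRELID1 itself had 365 CPM in miR-105, 153 CPM in MYC, 95.4 CPM in GFP and 120.4 CPM in the vector, higher in miR-105 by 3.83-fold over GFP and 3.03-fold over the vector. The part of PRELID1 reads in the MXD3 value was not tested.

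MXD1 (chr2:69915041-69942945) had 38.4 CPM in the library labelled miR-105, 34.6 CPM in that labelled MYC, 32.1 CPM in GFP and 22.5 CPM in the vector. The vector library was the low one: GFP exceeded it by 1.43-fold (1.21 to 1.69), and neither construct stood beyond 1.5-fold from both controls. MXD1 is the founding member of the family, and it is the MXD gene with the lowest level per kilobase of exon in the MYC, GFP and vector libraries.

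MGA (chr15:41660412-41773081), the scaffold that brings MAX into PRC1.6, had 58 CPM in the library labelled miR-105, 41.3 CPM in that labelled MYC, 25.8 CPM in GFP and 14.3 CPM in the vector. It was called higher in both construct libraries. The miR-105 library was 2.25-fold (1.94 to 2.61) above GFP and 4.07-fold (3.32 to 5) above the vector, and the MYC library 1.6-fold (1.39 to 1.85) above GFP and 2.9-fold (2.38 to 3.55) above the vector. The controls differed from each other by 1.81-fold (1.48 to 2.22), GFP being the higher, and MGA was the only member called between them. Over all measured genes 13.0% were called higher and 6.99% lower in GFP against the vector, 19.9% in either direction.

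**Figure D2:**
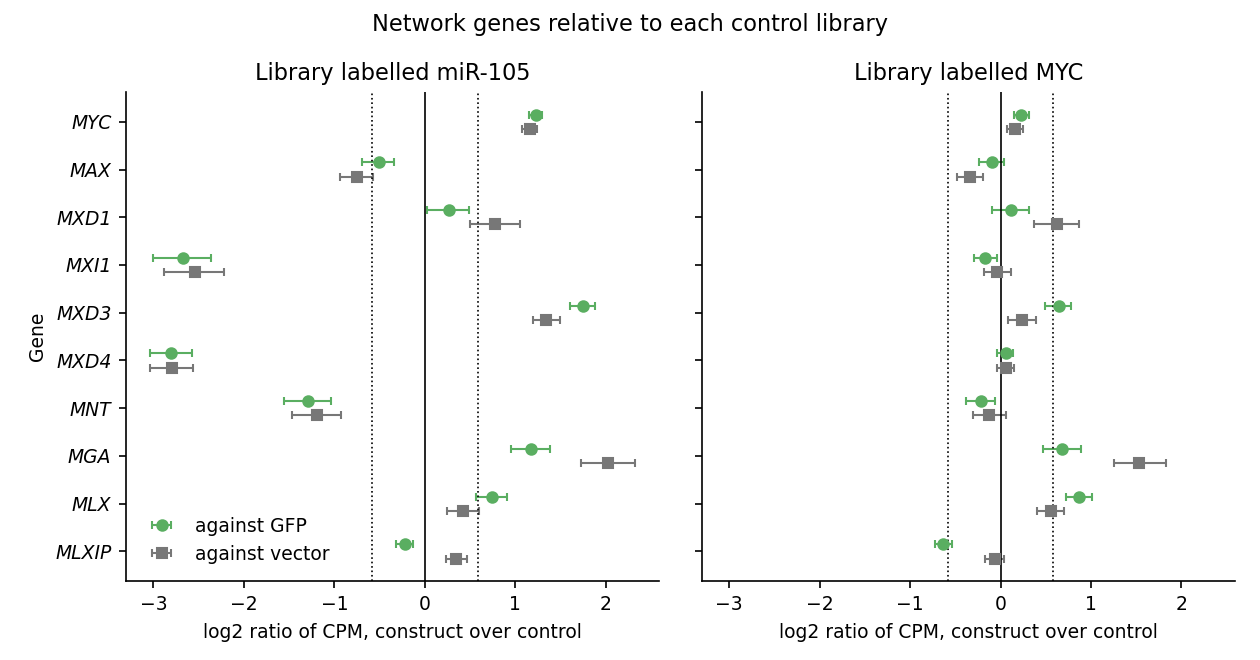
Fold of each member against GFP and against the vector, as log2 ratios of CPM, in the libraries labelled miR-105 and MYC, with exact conditional 95% intervals and lines at 1.5-fold either way. In the miR-105 library MYC, MXD3 and MGA lie past the upper line and MXI1, MXD4 and MNT past the lower one against both controls, whereas in the MYC library only MGA does so.

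The gap between the controls was passed by 8 of the 10 members in the miR-105 library and by 4 in the MYC library. These lay on the same side of both controls, farther from each on the log2 scale than the controls lay from each other. The share of all measured genes that pass this rule was not computed, so the counts describe the members only. Where the controls nearly coincide, even a small difference passes. In the miR-105 library the exceptions were MXD1 and MLXIP. In the MYC library the 4 were MYC, MXD4, MNT and MLX, and for MXD4 the distance was only 0.05. When the construct libraries were set directly against each other, 2 members were at least 1.5-fold higher in miR-105 than in MYC (MYC and MXD3) and 3 lower (MXI1, MXD4 and MNT), beside 30.3% and 29.3% of all measured genes (59.6% in either direction). MXD4 was 7.23-fold (6.17 to 8.52), MXI1 5.67-fold (4.55 to 7.14) and MNT 2.1-fold (1.74 to 2.53) lower in miR-105.

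With GFP and vector pooled as 1 control group, edgeR's quasi-likelihood test and DESeq2 each called the same 6 members in miR-105, at a Benjamini-Hochberg adjusted p under 0.05. Over all measured genes edgeR called 19.5% higher and 19.8% lower there, and DESeq2 12.9% and 14.0%. In the MYC library edgeR called MGA alone (adjusted p 0.0282; 10.9% of all measured genes higher, 11.8% lower), whereas DESeq2 called 0 members (adjusted p for MGA 0.173; 5.63% higher, 8.43% lower). Without adjustment, MGA was the only member that either tool named in the MYC library. The share of all measured genes named without adjustment was not computed. These fits rest on 1 residual degree of freedom, the difference between the control lines, and compare libraries, not conditions.

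Per kilobase of exon, MYC was the most abundant member in every library, with 154 CPM per kilobase in miR-105, 77.2 in MYC, 66 in GFP and 69 in the vector. The second rank went to MXD3 in the miR-105 library, at 51.4 CPM per kilobase, and to MXD4 in the others, at 46.4 in MYC, 44.8 in GFP and 44.7 in the vector. The lowest was MXI1 in the miR-105 library, at 3.45, and MGA in the others, at 2.72 in MYC, 1.7 in GFP and 0.94 in the vector. In the miR-105 library the neighbours MXD1, MXD4, MNT, MGA and MXI1 overlapped step by step in their counting intervals, and in the vector library MAX, MLX, MXD3 and MXI1 did so. MGA and MXI1 exchange the bottom ranks of the miR-105 library when the longest transcript is used as the length.

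The make-up of the MXD group followed from these values. Of the CPM per kilobase summed over MXD1, MXI1, MXD3 and MXD4, MXD3 made up 75.5% in the library labelled miR-105, against 24.9% in MYC, 17.5% in GFP and 22.7% in the vector. MXD4 made up 9.42% in miR-105, against 48.3% in MYC, 51% in GFP and 50.2% in the vector. MXI1 made up 5.06% in miR-105, against 20.4% in MYC, 25% in GFP and 22.5% in the vector. Only the miR-105 library had MXD3 in place of MXD4 as the leading MXD gene. The summed level was 248 CPM in miR-105, 381 CPM in MYC, 353 CPM in GFP and 352 CPM in the vector. The MXD3 share carries the overlap with PRELID1.

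Ratios of reads within a library need no scaling between libraries. There were 33.2 (26.9 to 41.5) MYC reads per MXI1 read in the library labelled miR-105, 2.93 (2.7 to 3.17) in that labelled MYC, 2.23 (2.08 to 2.39) in GFP and 2.55 (2.34 to 2.78) in the vector. In miR-105 the ratio was 14.9 times that of GFP and 13 times that of the vector, and in MYC it was 1.31 times that of GFP and 1.15 times that of the vector. MYC reads per MXD4 read were 17.8 in miR-105, 1.23 in MYC, 1.09 in GFP and 1.14 in the vector, and per MNT read 19.8 in miR-105, 4.73 in MYC, 3.47 in GFP and 3.88 in the vector. With the 4 MXD genes summed the ratio was 1.87 (1.76 to 1.99) in miR-105, 0.609 in MYC, 0.561 in GFP and 0.589 in the vector, so the contrast of miR-105 shrank to 3.33-fold over GFP and 3.18-fold over the vector. MYC reads per MAX read were 8.52 in miR-105, 3.2 in MYC, 2.55 in GFP and 2.26 in the vector. These are ratios of mRNA reads, and proteins were not measured.

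**Figure D3:**
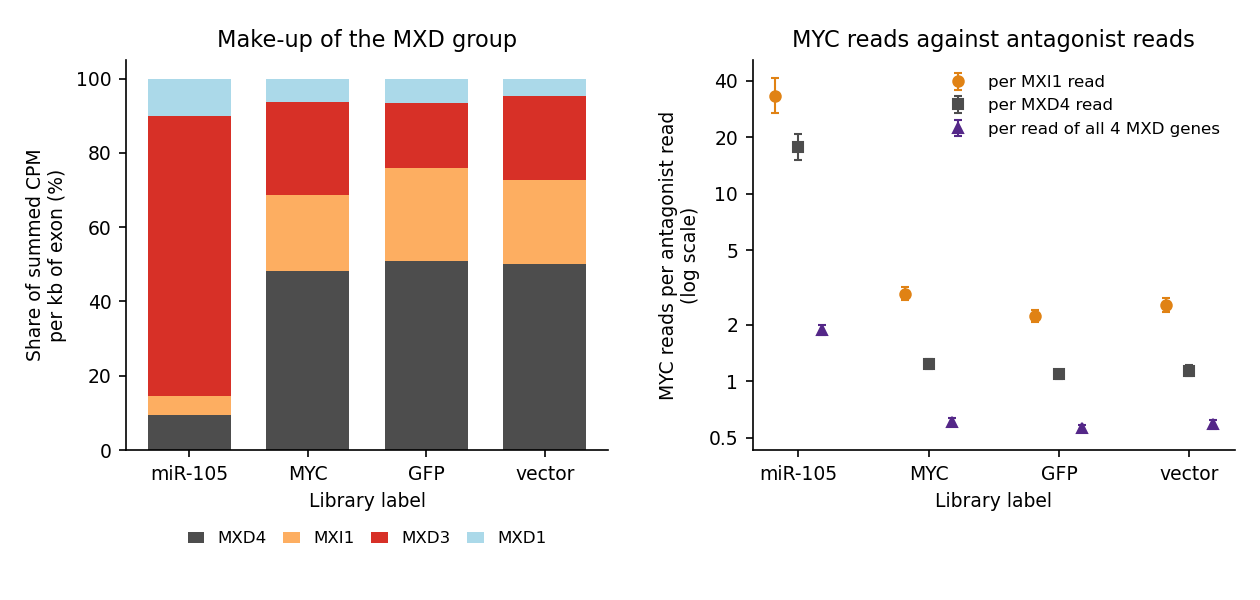
Left, share of each MXD gene in the summed CPM per kilobase of exon, in percent, for the libraries labelled miR-105, MYC, GFP and vector; right, MYC reads per read of MXI1, of MXD4 and of all 4 MXD genes (log axis), with exact binomial 95% intervals. MXD3 takes 75.5% in the miR-105 library, where the read ratios are also highest.

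Promoters were searched for the E-box CACGTG, which reads the same on both strands, from 250 bases before to 50 after the start (RefSeq, GRCh38.p14). It was found in 3 of the 14 promoters listed for 9 members, those of MNT, MXD4 and MLX, against 7.26% of all 35116 promoters. The boxes begin 193, 238 and 50 bases before the start, at chr17:2401236-2401265 and chr4:2262330-2262359 on the minus strand and chr17:42567038-42567067 on the plus strand. They are shown because MNT and MXD4 were both lower in the miR-105 library while MLX was not, with the box in capitals.
MNT: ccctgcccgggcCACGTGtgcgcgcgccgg
MXD4: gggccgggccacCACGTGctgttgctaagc
MLX: gcgggcgcgggtCACGTGggcacgccaccc
MXI1, MXD3 and MGA, which differed by more than 2-fold from both controls in the miR-105 library, have no such letters in this window. MYC, which also did, had no promoter listed and was not searched. Occupancy was not measured.

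The remaining partners of the same pairs were scarce. MYCN had 0 reads in every library. The detection limit of 3 reads was 0.471 CPM in miR-105 and 0.217 CPM in GFP, the least and most deeply sequenced libraries. MYCL had 0.627 CPM in miR-105, 1.61 in MYC, 1.16 in GFP and 0.973 in the vector, with intervals of every fold that include 1. MLXIPL (ChREBP), the other MLX partner that senses sugar, had 0 reads in miR-105, 45 in MYC, 2 in GFP and 6 in the vector. It reached a mean of 1 CPM over the libraries only through the library labelled MYC, and its GFP count is below the 3 reads taken as the limit of detection. By counting alone it was 29.5-fold (7.71 to 251) above GFP and 6.58-fold (2.8 to 18.9) above the vector in the library labelled MYC.

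Partner complexes and targets were described from 10 lists that hold 112 measured genes. In the library labelled miR-105, 50 of them were called higher and 14 lower, 44.6% and 12.5%, and in that labelled MYC 31 and 10, 27.7% and 8.93%. Genes that MYC is known to activate made up 30 of the 50 and 19 of the 31. The 31 include MLXIPL and CCND2, which reached the required mean only through the library labelled MYC, where they are high. The background shares of called genes given above apply to each list.

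Of 16 measured genes of the SIN3 corepressor complex, through which MXD proteins and MNT repress, 5 were called higher and 3 lower in miR-105, and 2 higher and 0 lower in MYC. SAP30, one of its subunits, had 21.5 CPM in miR-105, 14.1 in MYC, 5.13 in GFP and 7.14 in the vector, and was called higher in both. SIN3B, a core scaffold, had 56 CPM in miR-105, 195 in MYC, 160.4 in GFP and 134 in the vector, and in miR-105 it was 2.87-fold below GFP and 2.4-fold below the vector. SAP30L had the lowest fold of the list in MYC, at 84.5 CPM, 1.53-fold below GFP and 1.2-fold below the vector, and was not called there. The list's median log2 fold was 0.45 in miR-105 and 0.17 in MYC.

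Of 15 MYC coactivators, 4 were called higher and 0 lower in miR-105 (median 0.49), and 2 higher and 1 lower in MYC (median 0.2). The medians depended on the control: in miR-105 the median was 0.17 against GFP alone and 0.72 against the vector alone, and in MYC 0 and 0.43. RUVBL1, an ATPase of the TIP60 complex, had 184 CPM in miR-105, 81.4 in MYC, 48.4 in GFP and 46.5 in the vector. KAT2A, the acetyltransferase GCN5, had 132 CPM in the library labelled MYC, against 43.6 in GFP and 55.6 in the vector. EP300, another acetyltransferase, was lower there, with 91.7 CPM, against 259 in GFP and 138 in the vector. DMAP1 had the lowest fold of the list in miR-105, at 16.9 CPM, against 25.5 in GFP and 31.5 in the vector.

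Of 14 genes of MYC protein turnover, 5 were called higher and 0 lower in miR-105 (median 0.39), and 3 higher and 0 lower in MYC (median 0.24). The mitotic kinase PLK1, known to stabilise proteins of the MYC family, had 295 CPM in miR-105, 9.86 in MYC, 4.26 in GFP and 6.59 in the vector. AURKA, a mitotic kinase that protects MYCN from degradation, had 179 CPM in miR-105, 11.8 in MYC, 3.47 in GFP and 4.32 in the vector. Both are also cell cycle genes. The ligases BTRC and HUWE1 had the lowest folds of the list, BTRC in miR-105 and HUWE1 in MYC, and were not called: BTRC had 28.7 CPM in miR-105, against 48.5 in GFP and 38.6 in the vector, and HUWE1 365 CPM in MYC, against 787 in GFP and 431 in the vector.

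Of 11 subunits of PRC1.6, the complex of MGA, 4 were called higher and 0 lower in miR-105 (median 0.53), and 1 higher and 0 lower in MYC (median 0.09). PCGF6, the subunit that defines the complex, had 19 CPM in miR-105, 10.2 in MYC, 5.56 in GFP and 7.46 in the vector. The ubiquitin ligase RING1 had the lowest fold of the list in both, at 21.3 CPM in miR-105 and 24.6 in MYC, against 30.9 in GFP and 38.5 in the vector, and was called in neither. TFDP2 led the list in MYC, 1.49-fold above GFP (67.7 CPM) and 2.3-fold above the vector (44 CPM), just short of a call. Of 19 germline genes that PRC1.6 represses, 3 were measured and 4 had no read in any library; 1 was called higher and 1 lower in miR-105, and 0 higher and 2 lower in MYC. TDRKH had 12.9 CPM in miR-105, 3.6 in MYC, 8.09 in GFP and 6.81 in the vector, and was called higher in miR-105 and lower in MYC. SYCP3 had 0.471 CPM in miR-105, 1.9 in MYC, 4.05 in GFP and 6.16 in the vector, and STAG3 10 in miR-105, 8.72 in MYC, 12.6 in GFP and 8 in the vector.

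Of 6 other factors that bind E-boxes, 1 was called higher and 3 lower in miR-105 (median −0.62), and 1 higher and 2 lower in MYC (median 0.38). TFAP4, itself a MYC target, had 29.8 CPM in miR-105 and 30.7 in MYC, against 8.81 in GFP and 14.3 in the vector. TFEB, a regulator of lysosomal genes, had 6.59 CPM in miR-105, 37.6 in MYC, 20.6 in GFP and 25.8 in the vector. MITF, its relative, had 19 CPM in miR-105 and 8.25 in MYC, against 57.1 in GFP and 50.4 in the vector.

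Of 7 targets of MLXIP and MLX, 1 was called higher and 3 lower in miR-105 (median −0.57), and 1 higher and 2 lower in MYC (median −0.04, which turned positive under other scalings). TXNIP, which restrains glucose uptake and is a well known target of MLXIP, had 117 CPM in miR-105, 1669.5 in MYC, 2943 in GFP and 2222 in the vector. In miR-105 it was 25.3-fold (23.5 to 27.2) below GFP and 19.1-fold (17.7 to 20.5) below the vector, while MLXIP itself was not called there. HK2, a hexokinase that both branches are known to act on, went the other way, with 108 CPM in miR-105 and 71.2 in MYC, against 8.45 in GFP and 7.46 in the vector. KLF10, a repressor of transcription, had the lowest fold of the list in MYC, with 47.9 CPM, against 159 in GFP and 91.4 in the vector.

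Of 32 genes that MYC is known to activate, 30 were called higher and 0 lower in the library labelled miR-105, with a median log2 fold of 1.66, and 19 higher and 0 lower in that labelled MYC, with a median of 0.84. CDC25A, a phosphatase that starts the cell cycle, had 91.6 CPM in miR-105, 4.27 in MYC, 3.11 in GFP and 4.11 in the vector. The translation factor EIF4E had 127 CPM in miR-105 and 37.3 in MYC, against 31.3 in GFP and 36.3 in the vector, and was called in miR-105 alone. The cyclin CCND2 was called in MYC alone, with 35 CPM in MYC, 0 in miR-105 and GFP and 0.324 in the vector. It reached the required mean of 1 CPM only through the library labelled MYC, and it counts among the 19 called there. Of 8 measured genes that MYC is known to repress, 1 was called higher and 4 lower in miR-105 (median −0.87), and 3 higher and 3 lower in MYC (median 0.21, 0.39 against GFP alone and 0.03 against the vector alone). FTH1, the ferritin heavy chain, had 1313 CPM in miR-105, 4629 in MYC, 3650.2 in GFP and 4931 in the vector, and shares sequence with processed pseudogenes. GAS1, a growth arrest gene, had 1.88 CPM in miR-105, 24.1 in MYC, 1.66 in GFP and 3.78 in the vector. THBS1, thrombospondin, had 2337 CPM in miR-105, 64.8 in MYC, 1422 in GFP and 948 in the vector.

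**Figure D4:**
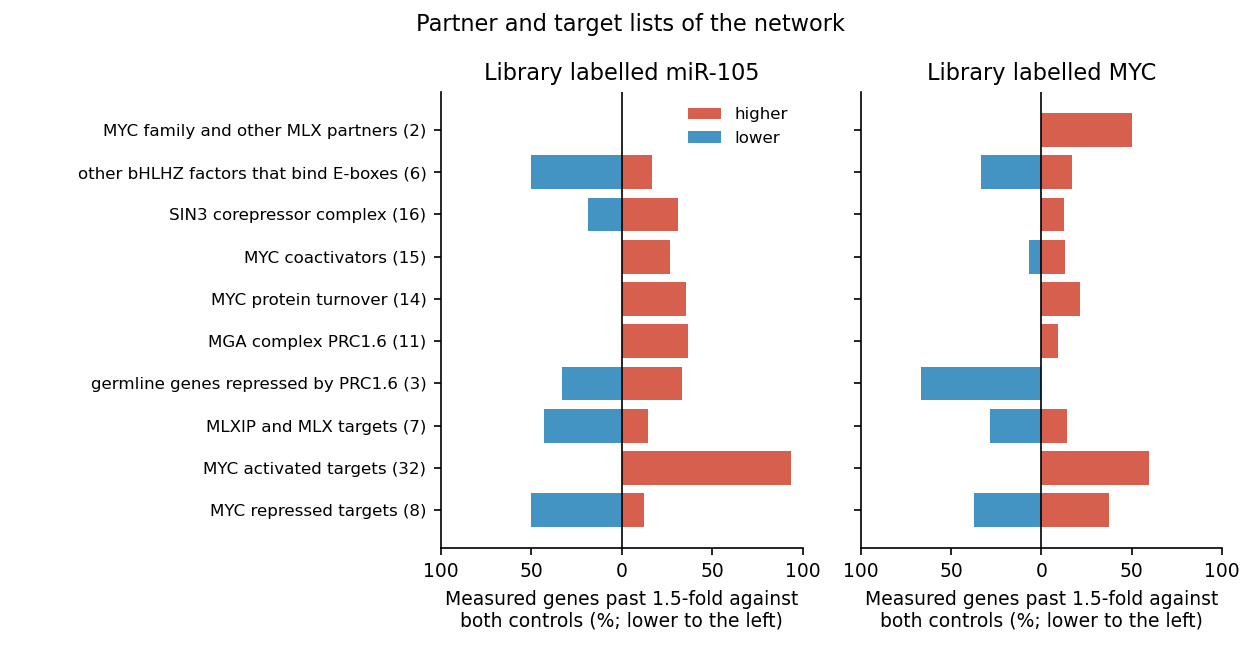
Percent of measured genes called at least 1.5-fold higher (right of 0) or lower (left of 0) than both controls in each of 10 partner and target lists, for the libraries labelled miR-105 and MYC; the number measured stands in brackets. Of the 32 activated MYC targets 30 are higher in miR-105 and 19 in MYC.

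Genes of dividing cells differed beside these results: all 14 measured proliferation genes were called higher in the library labelled miR-105, where they summed to 5730.5 CPM, against 384 in MYC, 322 in GFP and 362 in the vector, and 6 were higher in MYC. Squamous differentiation genes summed to 301 CPM in miR-105, 580.4 in MYC, 1491 in GFP and 1401 in the vector. Of 10 measured, 2 were called higher and 6 lower in miR-105, and 2 higher and 5 lower in MYC. The higher ones were SPRR1A and SPRR1B in both. SPRR1A had 1.41 CPM in miR-105, 2.28 in MYC, 0.361 in GFP and 0.324 in the vector, and SPRR1B 3.76, 7.11, 0.795 and 0.649. They reached the required mean of 1 CPM only through the construct libraries, where they are high. Of 11 basal mammary markers, 3 were called higher and 4 lower in miR-105 and 2 higher and 6 lower in MYC. They summed to 17629 CPM in miR-105, 11556 in MYC, 17548 in GFP and 17718 in the vector. The near-equal sums join genes that differed in opposite directions. At the extremes in miR-105, KRT5 had 4654 CPM, against 1614 in GFP and 1757 in the vector, and KRT17 had 766, against 5131 and 6927. Of 6 luminal markers, 3 were higher and 3 lower in miR-105 and 0 higher and 4 lower in MYC; they summed to 326 CPM in miR-105, 469 in MYC, 683 in GFP and 784 in the vector. These counts stand beside a background of 24.0% higher and 24.7% lower in miR-105 and 16.6% and 17.2% in MYC, and the part of these marker lists in the differences of the network members was not tested. CDKN2A, deleted in MCF10A, had 0 reads in every library. Fibroblast markers summed to between 27.3 and 157 CPM, nearly all from DCN and COL1A1, immune markers to at most 29.5 CPM and endothelial markers to at most 92.1 CPM; COL3A1 and, but for 1 read in GFP, PTPRC were at 0. Of 20 housekeeping genes, 9 were called higher and 1 lower in miR-105 and 0 higher and 4 lower in MYC.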

How the data were processed

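Per the labels' protocols, total RNA was extracted with TRIzol for poly(A) sequencing; hg19, TopHat2 and edgeR appear in the submitters' processing notes. The sources used here name no counter, annotation or strandedness. The authors deposited 1 depth-adjusted signal per gene and library, not the counts the design had assumed. The values were edgeR pseudo-counts, and inverting that mapping at a dispersion of 0.0553 gave whole reads for 100% of 18859 values in each library (tolerance 1e-05). 19 repeated lines were dropped.

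CPM used TMM factors of 0.9295, 1.077, 0.9871 and 1.012 for miR-105, MYC, GFP and vector, so 1 read was 0.157, 0.0948, 0.0722 and 0.108 CPM. Intervals are exact Poisson for levels and Clopper-Pearson for ratios. They cover counting error only, since reads lacking molecular identifiers may be copies of 1 molecule. Means of log2 folds average both controls. edgeR 4.0.16 and DESeq2 1.42.0 in R 4.3.3, with GFP and vector pooled as 1 control group, were alternatives, tested on simulated data. Other steps used Python 3.11.15 and SciPy 1.17.1.

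Members and lists were chosen with earlier results of these data known. The rule named every member and the extremes of each partner list in each construct library. It also named the 3 genes nearest to MYC and to MXI1 in profile. Marker lists are given as sums and counts, with a few of their genes named.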

Additional observations from a re-analysis of the deposited data

Results flagged for a closer look

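Of the measured genes in the partner and marker lists, the following were called in opposite directions in the construct libraries. Each rests on 1 library per construct, and the difference was not tested. THBS1, a target that MYC is known to repress, had a mean log2 fold of 1.01 in the library labelled miR-105 and −4.15 in that labelled MYC. NDRG1, of the same list, ran the other way, with −1.63 in miR-105 and 0.79 in MYC. TDRKH, a germline gene, had 0.75 in miR-105 and −0.95 in MYC. KRT6A, a keratin of the basal list, had 1.13 in miR-105 and −0.86 in MYC. ESR1, the oestrogen receptor of the luminal list, had 0.84 in miR-105 and −2.97 in MYC. KDR, a VEGF receptor of the endothelial list, had −3.9 in miR-105 and 1.42 in MYC.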

How the results depend on the processing

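No paired analysis was possible because each construct has 1 library and the labels give no replicate numbers. In the miR-105 library the 3 higher members became 4 against GFP alone and against the vector alone. The 3 lower became 4 with library totals alone and against the vector alone. Other alternatives left both counts of the miR-105 library unchanged, and none of 49 recomputed folds of called members changed sign. With the controls pooled, edgeR and DESeq2 called 3 higher and 3 lower there, with adjusted p between 2.05e-11 and 0.0174. In the MYC library the single higher member became 2 with library totals alone, 0 at 2-fold, 3 against GFP alone, 2 against the vector alone and 0 with DESeq2 (adjusted p for MGA 0.173, against 0.0282 with edgeR), and the 0 lower became 1 against GFP alone. At 2-fold, members higher in GFP than in the vector numbered 0 in place of 1, and those higher in miR-105 than in MYC 1 in place of 2. MYC reads per read of all 4 MXD genes, in place of MXI1, were 1.87 in miR-105, 0.609 in MYC, 0.561 in GFP and 0.589 in the vector. Library totals alone moved the median log2 fold of all genes to −0.09 in miR-105 and 0.14 in MYC, against 0.01 and 0.04. Under it MXI1 in MYC stood at 0.01, against −0.1, and MLXIP in miR-105 at −0.04, against 0.06 (−0.22 against GFP alone). The median of the MLXIP and MLX targets in MYC was 0.07 under it and 0.02 with the values as deposited. The causes were not tested. Depth limits genes below 0.471 CPM, the value of 3 reads in miR-105.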

Other observations

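Among the 10856 genes averaging 5 CPM or more, the profiles nearest to MYC over the 4 libraries, by root mean square difference of centred log2(CPM + 0.5), were TOMM40L (0.00505), HAUS5 (0.0106) and LYPD1 (0.0259). TOMM40L, a paralogue of a mitochondrial import channel, had 28.4 CPM in miR-105, 13.8 in MYC, 11.8 in GFP and 12.4 in the vector. Nearest to MXI1 were DYRK1B (0.0724), RSRP1 (0.081) and GGT7 (0.0817). DYRK1B, a kinase, had 5.02 CPM in miR-105, 32.2 in MYC, 33.2 in GFP and 34.3 in the vector, and RSRP1 had 40.5 CPM in miR-105, 209 in MYC, 219.7 in GFP and 202 in the vector. Each profile rests on 4 libraries.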
